A study of Mus musculus with 6 samples.

Results

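The 8 genes described here are the p53 family of transcription factors (*Trp53*, *Trp63* and *Trp73*), the paired p53 inhibitors *Mdm2* and *Mdm4*, and 3 genes that p53 switches on (*Ccng1*, *Sesn2* and *Trp53inp1*). They were taken by name from the 53657 gene names in the deposited count tables, and all 8 were found in each of the 6 libraries. RNA came from tdTomato+, MCAM-bright cells sorted from dissociated testes of adult mice, 3 months after tamoxifen. MCAM is a surface protein, and within the labeled germ line the brightest cells are enriched for undifferentiated spermatogonia (A undiff), the population that holds the stem cells of the testis. The WT group (n = 3) had wild-type *Hras* and the MUT group (n = 3) a heterozygous *Hras* G12V mutation, which keeps the small GTPase HRAS in its active state. Mice of both groups carried the *Gfra1-creERT2* driver, whose Cre is active in *Gfra1*-expressing germ cells, and a *tdTomato* reporter, and received a pair of tamoxifen courses. The mutant mice carried in addition the *FR-Hras G12V* flox-and-replace allele, in which Cre removes a wild-type *Hras* copy and lets the mutated copy behind it be read from the endogenous locus. Label and mutation arise from separate recombination events. The share of mutated cells, which the study measured in these samples, was not analysed here. The controls were littermates without that allele, on the same mixed background.

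p53 is kept scarce in unstressed cells because MDM2, a ubiquitin ligase, marks it for destruction and MDM4 masks its activating domain. DNA damage or an overactive oncogene releases p53 from this hold, and p53 then switches on genes that arrest the cycle, repair DNA or kill the cell. *Mdm2* is itself among the genes that p53 switches on, which closes a feedback loop. In many somatic cells active RAS engages p53 through *Cdkn2a*, whose ARF product sequesters MDM2. Much of this control acts on protein stability, which counts of mRNA do not measure.

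The promoter windows of the genes in this loop are shown because they can be searched for the sequence that p53 reads. The windows are those of RefSeq on GRCm38.p6, from 250 bases before to 50 bases after an annotated start. A p53 response element consists of 2 half-sites of 10 bases each, at most 13 bases apart, and was searched here by its consensus without mismatches (the half-site reads alike on both strands). In the sequences below, each window is printed in the direction of its gene, and capitals mark a match to the half-site.

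*Trp53* (chr11:69580109-69580408, plus strand): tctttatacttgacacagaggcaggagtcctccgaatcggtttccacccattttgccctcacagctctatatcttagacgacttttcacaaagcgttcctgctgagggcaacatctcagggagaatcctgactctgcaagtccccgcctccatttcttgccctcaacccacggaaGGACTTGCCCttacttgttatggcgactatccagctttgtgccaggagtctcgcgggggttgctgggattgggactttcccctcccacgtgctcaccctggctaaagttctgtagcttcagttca
*Mdm2* (chr10:117710709-117711008, minus strand): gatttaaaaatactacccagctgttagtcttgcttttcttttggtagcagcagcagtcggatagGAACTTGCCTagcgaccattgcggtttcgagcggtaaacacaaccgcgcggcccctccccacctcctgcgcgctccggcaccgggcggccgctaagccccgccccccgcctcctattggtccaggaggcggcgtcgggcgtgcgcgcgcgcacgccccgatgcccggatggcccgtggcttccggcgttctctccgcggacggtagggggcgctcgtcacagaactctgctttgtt
*Ccng1* (chr11:40755237-40755536, minus strand): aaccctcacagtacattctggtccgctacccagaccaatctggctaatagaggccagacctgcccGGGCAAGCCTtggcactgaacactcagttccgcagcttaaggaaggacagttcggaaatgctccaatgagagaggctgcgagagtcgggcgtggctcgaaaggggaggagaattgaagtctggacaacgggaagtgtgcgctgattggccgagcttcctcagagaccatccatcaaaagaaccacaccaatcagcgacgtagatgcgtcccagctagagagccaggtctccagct
*Cdkn1a* (chr17:29090729-29091028, plus strand): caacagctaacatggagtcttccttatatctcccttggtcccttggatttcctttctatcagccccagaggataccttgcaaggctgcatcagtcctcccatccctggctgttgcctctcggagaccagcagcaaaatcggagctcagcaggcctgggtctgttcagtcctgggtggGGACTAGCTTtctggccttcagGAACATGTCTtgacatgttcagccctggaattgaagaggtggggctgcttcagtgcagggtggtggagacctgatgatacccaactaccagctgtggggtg

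*Trp53*, *Mdm2* and *Ccng1* each held a single half-site, beginning at positions -75, -186 and -185 from the annotated start. Sequence outside the windows was not searched, so these need not be the sites through which p53 acts on the genes. *Cdkn1a*, the p21 inhibitor of cyclin-dependent kinases, is shown as the textbook p53 target. The window at its upstream start held 2 half-sites, at -73 and -51, which this search counted together as a full element. Half-sites with a mismatch were not considered, so this pair need not be the element that p53 uses. Of the 8 genes, 6 had a window (not *Trp63* or *Trp53inp1*), and 3 of their 8 windows held a half-site. The windows of *Mdm4*, *Sesn2* and *Trp73* held none and are not printed. The window at the downstream start of *Cdkn1a* also held none and is not printed. Half-sites occurred in 2745 of all 32851 windows (8.36%) and full elements in 24 (0.0731%). A match is a run of letters and does not show that p53 was bound there in these cells.

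The 6 libraries were alike in depth, with 22729292 to 23550433 fragments counted on genes, so that 3 counts, the level that counting error cannot tell from 0, corresponded to between 0.127 and 0.132 CPM (library-scaled counts, here relative to the total and elsewhere after TMM normalization). All 11 markers of germ cells and undifferentiated spermatogonia were detected, and their summed level was 3141 to 3713 CPM in WT and 3217 to 3648 CPM in MUT. Markers of other cells were also present. The list of differentiating spermatogonia summed to 1229 to 1257 CPM in WT and 1246 to 1449 CPM in MUT. Of its genes, *Stra8* was higher in every MUT than in every WT sample (unadjusted p = 0.0361 and adjusted p = 0.998 from edgeR), an order that 4.69% of tested genes had. In the Sertoli cell list *Wt1* and *Gata4* were ordered in this way too, while *Sox9* (log2 fold change -0.014), *Amh*, *Rhox5* and *Cldn11* overlapped. That list summed to 25.1 to 31.0 CPM in WT and 29.0 to 36.7 CPM in MUT, with overlapping groups. *Mzb1* of the B lineage list, with 7 to 20 counts, was lower in every MUT than in every WT sample, as 3.0% of tested genes were. The other genes of that list overlapped, with log2 fold changes from -3.1 (*Igkc*) to 0.13 (*Cd79a*). The macrophage list summed to 721 to 1197 CPM in WT and 642 to 803 CPM in MUT, and the spermatid list to 869 to 1476 CPM and 601 to 1147 CPM, with overlapping groups in both. The B lineage list summed to 76.8 to 327 CPM in WT and 26.1 to 88.7 CPM in MUT. No gene of any marker list was at 0 in all samples. The part of these cells in the results below was not tested. The Leydig cell list summed to 67.3 CPM in MUT replicate 3 and to between 12.9 and 21.1 CPM elsewhere. WT replicate 3 stood apart from the other controls. Its counts differed from theirs by a chi-square per degree of freedom of 18.2 and 24.5, against 5.16 between WT replicates 1 and 2. Among the 1391 tested genes with over 10 kb of exon, 61.5% had their lowest level in that library, against 27.0% of all tested genes.

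Compared per kb of exon, 6 of the genes were well expressed and *Trp63* and *Trp73* were not. *Sesn2* was the most abundant, at 32.7 CPM per kb averaged over the 6 samples (range 30.4 to 36.0). It was followed by *Mdm2* at 31.1 (30.05 to 32.2) and *Trp53inp1* at 29.8 (27.0 to 32.7), and the ranges of these 3 genes overlapped. *Trp53* itself was at 22.3 CPM per kb (21.2 to 23.1), below the first 3 genes in every sample and above the next. *Mdm4* at 18.4 (16.4 to 19.4) and *Ccng1* at 18.1 (17.8 ± 1.95 in WT and 18.3 ± 1.23 in MUT, SD, n = 3) could not be ordered, since *Mdm4* was the higher in 3 of 6 samples. These 6 genes stood above between 81.7% and 91.0% of the 19656 genes tested. *Trp73* at 0.207 CPM per kb (0.142 to 0.263) and *Trp63* at 0.0904 (0.0521 to 0.121) stood above 4.96% and 0.804% of them. Exon length here is the merged length of all annotated isoforms, 14798 bases for *Mdm4* against 4045 for *Trp53*, so that a gene read mainly as short isoforms appears lower per kb than it is.

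**Figure D1:**
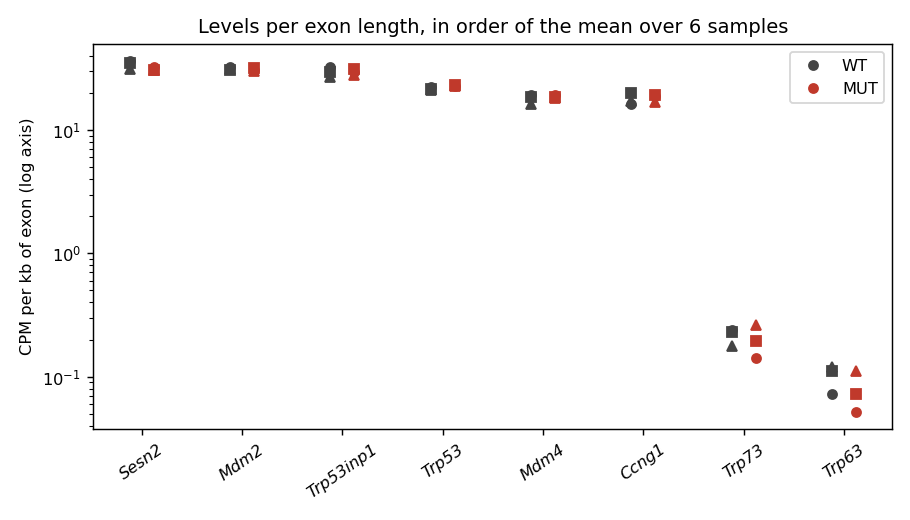
Level of each gene in CPM per kb of exon (log axis) in the 6 samples, ordered by the mean; circles, squares and triangles are replicates 1, 2 and 3 of WT (grey) and MUT (red). *Sesn2*, *Mdm2* and *Trp53inp1* lie between 27.0 and 36.0, while *Trp73* and *Trp63* lie between 0.0521 and 0.263.

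The comparison of MUT with WT asks whether the p53 system was read differently in spermatogonia with active HRAS. None of the 8 genes passed an adjusted p of 0.1 in edgeR's quasi-likelihood test, where 2 of 19656 genes did so in all (0.0102%). With same-numbered samples blocked, 13 genes passed. Each of the 8 had an adjusted p of 0.998, with unadjusted p between 0.136 and 0.973, and none of the 8 had an unadjusted p under 0.05. Across all genes 547 did so, or 2.78%.

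*Trp53* encodes p53 and lies on the plus strand of chromosome 11 from 69580359 to 69591873 (GRCm38). The WT libraries, in the order of their replicate numbers, held 2080, 2049 and 2032 *Trp53* counts, and the MUT libraries 2101, 2159 and 2164. After normalization these were 90.9, 87.6 and 85.9 CPM in WT and 91.8, 93.6 and 92.5 CPM in MUT. Each MUT sample was thus higher than each WT sample, which was also so for 4.69% of the genes tested (7.69% were ordered without overlap in either direction). *Trp53* was the 1 gene of the 8 whose groups did not overlap. WT averaged 88.1 ± 2.55 CPM (SD, n = 3) and MUT 92.7 ± 0.912 CPM (SD, n = 3). This is a log2 fold change of 0.073 with a standard error of 0.060 (unadjusted p = 0.256 and adjusted p = 0.998 from edgeR). The 95% confidence interval ran from 0.957-fold to 1.16-fold.

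*Trp63* encodes p63, known as the guardian of oocyte integrity in the female germ line and a master factor of stratified epithelia. It spans 25683763 to 25892102 of chromosome 16 and had 14, 22 and 24 counts in WT and 10, 14 and 22 counts in MUT. These correspond to 0.612, 0.940 and 1.01 CPM in WT and 0.437, 0.607 and 0.940 CPM in MUT, with overlapping groups and all samples above the floor of 3 counts. *Trp73* encodes p73, which is needed for multiciliated cells and, in the testis, for the attachment of germ cells to Sertoli cells. It occupies chromosome 4 from 154056253 to 154140208 on the minus strand, and 280 of its 5534 exon bases are shared with the antisense gene *Trp73os*, which had at most 2 counts in any sample. *Trp73* had 30, 30 and 23 counts in WT and 18, 25 and 34 counts in MUT, so the highest and the lowest library were both MUT. *Trp63* was lower in MUT in each of the 3 same-numbered pairs (adjusted p = 0.937 from edgeR with the block), but how many of all tested genes were so ordered was not counted. The log2 fold changes were -0.37 (standard error 0.36, and -0.71 to -0.15 when each sample was left out) for *Trp63* and -0.098 (standard error 0.29) for *Trp73*. At these counts the intervals were wide, from 0.439-fold to 1.37-fold for *Trp63* and from 0.590-fold to 1.48-fold for *Trp73*, so a change of moderate size was not detectable in either gene.

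**Figure D2:**
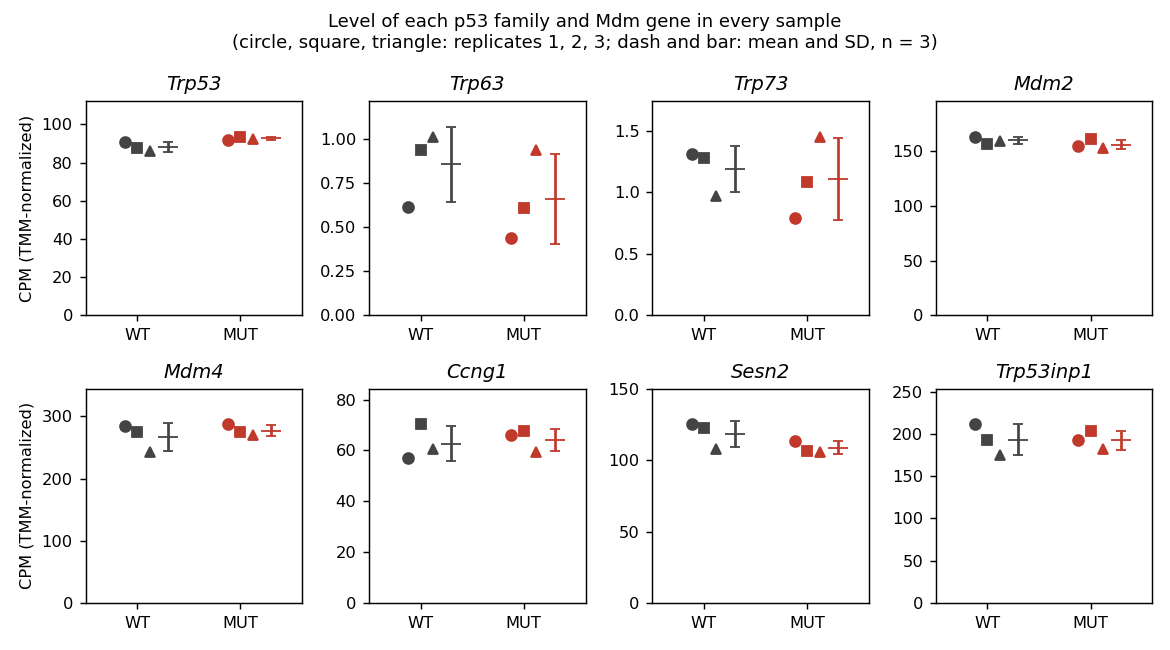
TMM-normalized CPM of the 8 genes in every sample (linear axes from 0); points are the replicates of WT (grey) and MUT (red), and dashes with bars are means and SD (n = 3). *Trp53* is the gene in which all MUT samples (91.8 to 93.6 CPM) lie above all WT samples (85.9 to 90.9 CPM).

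*Mdm2* occupies chromosome 10 from 117688875 to 117710758 on the minus strand. It was at 164, 157 and 159 CPM in the WT samples and at 155, 161 and 153 CPM in the MUT samples, in the order of the replicates. The groups overlapped and the counts in the 6 libraries stayed between 3550 and 3771. WT averaged 160.1 ± 3.32 CPM (SD, n = 3) and MUT 156 ± 4.24 CPM (SD, n = 3), a log2 fold change of -0.034 (standard error 0.061). The confidence interval ran from 0.886-fold to 1.08-fold, on the log2 scale the narrowest of the 8 after that of *Trp53*.

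*Mdm4*, whose product binds p53 without being an efficient ubiquitin ligase, occupies chromosome 1 from 132959484 to 133030561 on the minus strand. It was at 285, 275 and 242 CPM in WT and at 287, 274 and 269 CPM in MUT. The low value is that of WT replicate 3, the library in which genes with long exons were low, and *Mdm4* has the longest exon sequence of the 8 genes. The part of that library's difference in this value was not tested. The log2 fold change was 0.052 (standard error 0.081, interval 0.912-fold to 1.18-fold), and it was -0.014 without WT replicate 3.

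Because p53 is held by its inhibitors, the levels were also compared as ratios within each library, which do not depend on the scaling between libraries. Per kb of exon, *Mdm2* stood to *Trp53* at 1.43, 1.43 and 1.48 in the WT libraries and at 1.34, 1.37 and 1.31 in the MUT libraries. Every MUT library was below every WT library. How many ratios of other gene pairs were so ordered was not counted. The groups of *Trp53* alone did not overlap (log2 fold change 0.073) and those of *Mdm2* did (-0.034). The order of the ratio is thus not separate evidence from that of *Trp53*. As log2 ratios, WT averaged 0.53 ± 0.027 (SD, n = 3) and MUT 0.42 ± 0.029 (SD, n = 3), which differ by -0.11. An exact permutation test (two-sided) gave p = 0.1, which with 3 samples a group is the lowest it can reach, and 0.3 after Benjamini-Hochberg adjustment over the 3 ratios computed. Because the groups did not overlap, the sign had to be the same in all 3 same-numbered pairs and whichever sample was left out. The exact sign-flip permutation test of the pairs therefore had to give its lowest possible p, 0.25, and adds no evidence. The difference lay between -0.12 and -0.092 when each sample was left out. *Mdm4* stood to *Mdm2* at 0.597, 0.600 and 0.522 in WT and 0.636, 0.585 and 0.606 in MUT, with overlapping groups (log2 difference 0.090, p = 0.4 and adjusted p = 0.6 by the same exact test). *Ccng1* stood to *Trp53* at 0.722, 0.924 and 0.814 in WT and 0.828, 0.830 and 0.739 in MUT (log2 difference -0.032, p = 1 by the same exact test).

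**Figure D3:**
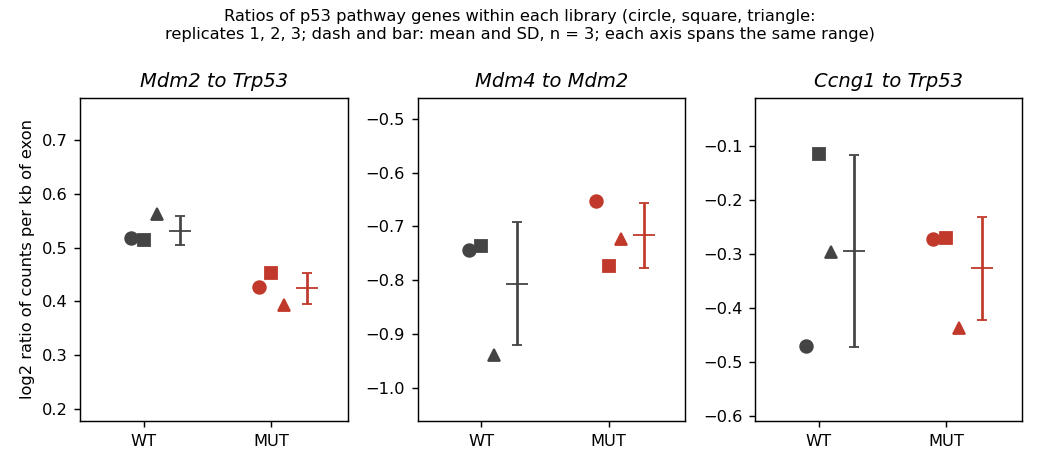
log2 ratio of counts per kb of exon between 2 genes of the same library, for WT (grey) and MUT (red); points are replicates and dashes with bars are means and SD (n = 3). In the left panel the 3 MUT libraries (1.31 to 1.37 as linear ratios) lie below the 3 WT libraries (1.43 to 1.48), while the other panels overlap.

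Among the target genes, *Ccng1* encodes cyclin G1, which recruits a phosphatase to MDM2. It occupies chromosome 11 from 40748552 to 40755311 on the minus strand and was at 56.9, 70.3 and 60.7 CPM in WT and 66.0, 67.4 and 59.3 CPM in MUT. WT replicates 1 and 2 were the lowest and the highest of the 6 samples, so the spread within WT covered all of MUT. The log2 fold change was 0.037 (standard error 0.094, interval 0.885-fold to 1.19-fold).

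*Sesn2* encodes sestrin 2, a leucine sensor that restrains the growth kinase complex mTORC1 and limits oxidative stress. It occupies chromosome 4 from 132492032 to 132510501 on the minus strand. Its levels were 125, 122 and 108 CPM in WT and 114, 106 and 106 CPM in MUT, and the groups overlapped through WT replicate 3. Within same-numbered pairs MUT was the lower in 3 of 3 (adjusted p = 0.875 from edgeR with the block). The share of all tested genes ordered alike in every pair was not counted, so this order is not a result about *Sesn2*. WT averaged 119 ± 9.24 CPM (SD, n = 3) and MUT 109 ± 4.45 CPM (SD, n = 3). This is a log2 fold change of -0.13 with a standard error of 0.076 (unadjusted p = 0.136 and adjusted p = 0.998 from edgeR, interval 0.813-fold to 1.03-fold). This was the smallest p among the 8 genes. Without WT replicate 3 the log2 fold change was -0.19 with an unadjusted p of 0.0114 and an adjusted p of 0.999 from edgeR. In that fit 729 of 20086 genes had an unadjusted p under 0.05. Leaving out any other sample gave an unadjusted p of 0.108 or more from edgeR. The log2 fold change ran from -0.19 to -0.093 when each sample was left out.

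*Trp53inp1* encodes a stress-induced nuclear protein that works with p53 in cell death and autophagy. It lies on the plus strand of chromosome 4 from 11156431 to 11174379 and was at 211, 193 and 175 CPM in WT and 192, 204 and 182 CPM in MUT. Its log2 fold change was -0.0030 (standard error 0.087, interval 0.869-fold to 1.15-fold), the closest to 0 of the 8 genes. Taken over the 6 well-expressed genes, the intervals left room for changes between 0.813-fold and 1.19-fold, and the coefficient of variation within a group was between 0.985% and 10.96%. It was between 15.8% and 38.7% for *Trp63* and *Trp73*. In RNA from sorted cells, fewer cells of a type and less RNA per cell cannot be told apart.

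The 29 regulators and cofactors listed beside these genes were all expressed well enough to test. None was called in either direction, and none had an unadjusted p under 0.05. Their median log2 fold change was 0.050, against 0.0066 over all genes tested, and 22 of 29 were positive (51.8% of all genes tested were). The size of both depended on single libraries. Leaving out each sample in turn gave medians from 0.014 (17 of 29 positive, without MUT replicate 2) to 0.072 (25 of 29, without MUT replicate 3), with 0.017 and 16 of 29 without WT replicate 3. Over all genes tested these fits gave medians of -0.0044 (48.2% positive), 0.010 (52.4%) and 0.010 (53.3%), in the same order. *Cdkn2a*, which encodes ARF and the p16 inhibitor of cyclin-dependent kinases, had 1408 to 1742 counts and stood above 96.4% of tested genes per kb. Its log2 fold change was 0.041 (standard error 0.10). *Atm*, the kinase that senses broken DNA, was at 0.064 (0.15), *Chek1* at 0.059 (0.093) and *Chek2*, kinases downstream of DNA damage sensors, at 0.019 (0.083), each with its standard error. *Usp7*, which removes ubiquitin from p53 and MDM2, was at 0.050 (0.079), and *Ppm1d*, a phosphatase that ends the p53 response, at -0.024 (0.072). The ubiquitin ligase gene *Cop1*, listed under its older symbol *Rfwd2*, was at -0.013 (0.079). *Hipk2*, a kinase of p53, was at 0.16 (0.11), the largest difference in the list. *Rpl11*, a ribosomal protein that can bind MDM2, was at -0.017 (0.091), and *Trp53bp1*, a DNA repair factor, at 0.092 (0.11). For 2 genes of the list each MUT sample was higher than each WT sample, *Atr* and *Trim24*, both named after their values were seen, where 4.69% of tested genes were so ordered.

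Of 37 further target genes, 36 were tested, and *Rprm* was left out with at most 6 counts. None was called, and 1 of 36 had an unadjusted p under 0.05, where 2.78% of all genes tested did. This was *Plk3*, a stress-responsive kinase named after its value was seen (log2 fold change -0.34, standard error 0.12, unadjusted p = 0.0232 and adjusted p = 0.998 from edgeR). At that share it is not a result about the target genes. The median log2 fold change was 0.038, against 0.0066 over all genes tested, and 24 of 36 were positive (51.8% of all genes tested were). Leaving out each sample in turn gave medians from 0.0086 (20 of 36, without MUT replicate 2) to 0.058 (23 of 36, without MUT replicate 3). The median was 0.019 (20 of 36) without MUT replicate 1, and 0.022 without WT replicate 1 (20 of 36) or WT replicate 3 (21 of 36). Over all genes tested, the medians with a sample left out ran from -0.0080 without WT replicate 1 (48.0% positive) to 0.010 without WT replicate 3 (53.3%).

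Among the genes of arrest and repair, *Cdkn1a* was at 15.6, 18.8 and 23.4 CPM in WT and 15.8, 17.7 and 14.8 CPM in MUT, a log2 fold change of -0.26 (standard error 0.16). Its highest value was that of WT replicate 3. *Sesn1*, a relative of *Sesn2*, was lower in all MUT samples than in all WT samples, as 3.0% of tested genes were, at a log2 fold change of -0.15 (standard error 0.080, unadjusted p = 0.101). *Btg2*, an antiproliferative gene, was at -0.033 (0.12), *Gadd45a*, a stress sensor, at 0.0021 (0.13), *Zmat3*, an RNA-binding target, at 0.035 (0.14) and *Phlda3*, an inhibitor of AKT signaling, at 0.042 (0.16).

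Among the genes of cell death, *Bax*, the pore-forming effector of the mitochondrial pathway, was the best expressed of those named, above 96.5% of tested genes per kb, with a log2 fold change of 0.069 (standard error 0.087). The BH3-only genes *Pmaip1*, which encodes NOXA, and *Bbc3*, which encodes PUMA, were at -0.22 (0.12) and -0.079 (0.14). *Pmaip1* was at 47.0, 45.9 and 55.7 CPM in WT and 48.9, 37.5 and 41.5 CPM in MUT, again with WT replicate 3 the highest. The death receptor gene *Fas*, with 9 to 29 counts, and the receptor gene *Eda2r*, with 46 to 76 counts, had log2 fold changes of -0.67 (0.40) and -0.35 (0.25), with overlapping groups. *Perp*, a membrane protein gene with 20 to 30 counts, was at 0.26 (0.23) and, like *Triap1* (named after its values were seen), higher in all MUT than in all WT samples, an order that 4.69% of tested genes had.

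**Figure D4:**
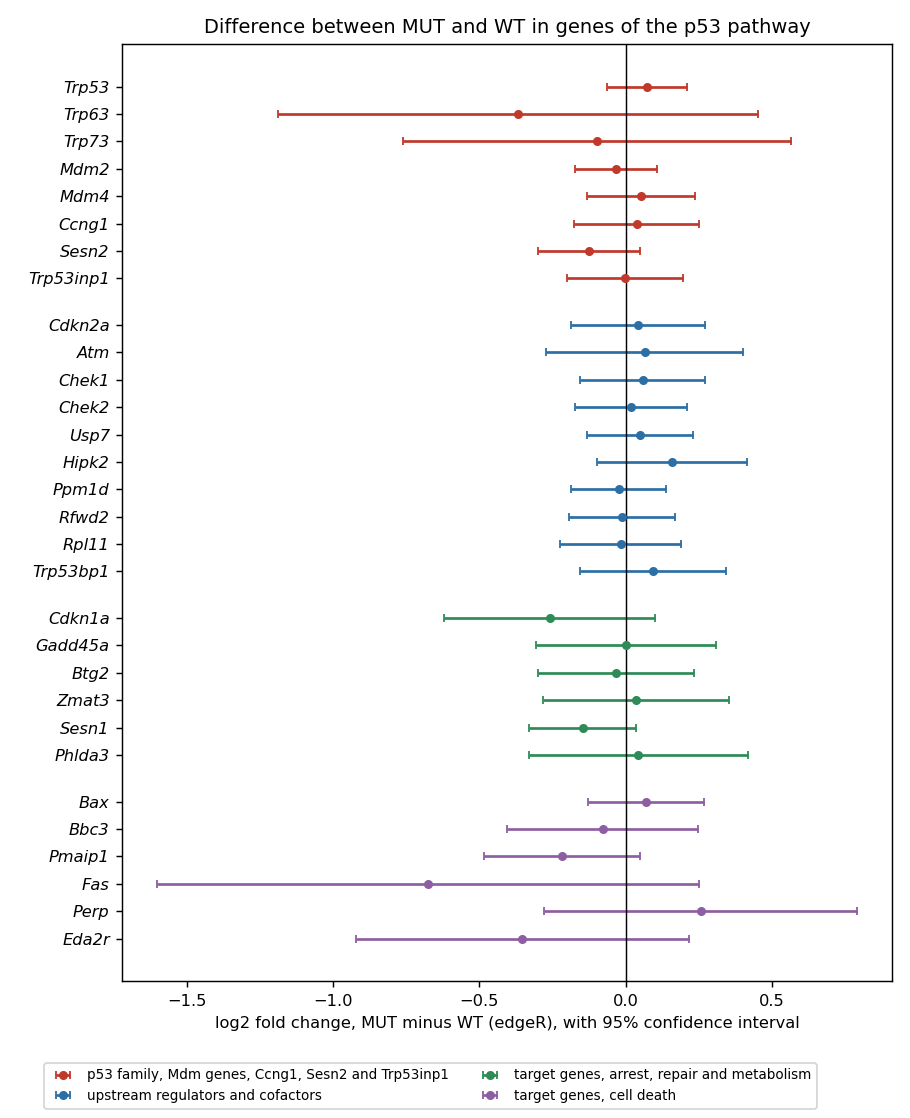
log2 fold change of MUT against WT (points) with its 95% confidence interval (bars) from edgeR for the 8 genes (red) and the named upstream regulators (blue) and target genes of arrest and repair (green) and of cell death (purple). All the intervals drawn include 0 (*Plk3*, whose interval of -0.62 to -0.059 does not, is not drawn), and that of *Trp63* reaches from -1.19 to 0.45.

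The genes closest to *Trp53* in their deviations over the 6 samples, by the root mean square difference of log2 CPM, were *Pot1b* (0.019), *Stk19* (0.019) and *Zfp777* (0.021), among 19118 genes that varied at least as much. Those closest to *Mdm2* were *Col4a3bp* (0.013), *Katnal1* (0.015) and *Itfg2* (0.018) among 19502 genes. The median difference among candidates was 0.167 for both. The named genes were picked as the nearest, so that they lie below this median was fixed by the choice and is not a result. *Hras*, whose whole-gene count does not separate the alleles, had 1300 to 1600 counts, and the *tdTomato* reporter 1231 to 1526 counts in the 6 samples, with overlapping groups in both.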

How the data were processed

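For each of 6 libraries (TruSeq Stranded mRNA, paired ends) the authors deposited a table of unnormalized fragment counts, 1 row a gene name, made per the file headers with featureCounts 1.6.2 on GENCODE M17 with a *tdTomato* entry, without regard to strand and without multi-mapping or ambiguous fragments. The submitters' processing notes name STAR, FastQC and GRCm38.p6. Near-identical copies and overlapping genes can therefore be undercounted.

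Counts were normalized by TMM in edgeR 4.0.16 (R 4.3.3), filterByExpr kept 19656 genes including all 8, and the quasi-likelihood test compared MUT with WT (genotype only, Benjamini-Hochberg adjustment over all genes, threshold 0.1). Standard errors came from the fold change and its F statistic. DESeq2 1.42.0, the tool of the study, and limma 3.58.1 were alternatives. Ratios used a prior count of 0.5. Each sample had 22729292 to 23550433 counts, and limits from depth cover counting error only. Groups and numbers came from the sample titles. Deviations of same-numbered samples from their group means correlated at 0.30, 0.16 and 0.40 over 10583 genes above 10 CPM. Every same-numbered pair passed the threshold of 0.1, so the numbers were taken to pair the samples. WT replicate 2, however, correlated more with MUT replicate 1 (0.33) than with MUT replicate 2 (0.16). The controls were littermates, but neither the sample titles nor the study states which mice belong together. The pairing is thus an assumption, on which the block and the same-numbered pairs rest. Per the study, each group held 3 mice.

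The 8 genes and the lists were chosen with earlier results of these data known. Named were the 8 genes, 22 listed pathway genes whatever their values, any other listed gene past the threshold (there was none), *Hras*, *tdTomato* and the 3 genes most like *Trp53* and *Mdm2*. *Atr*, *Trim24*, *Plk3*, *Triap1*, *Stra8*, *Wt1*, *Gata4* and *Mzb1* fall outside this rule and were named after their values were seen. The fits were tested on simulated counts.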

Additional observations from a re-analysis of the deposited data

How the results depend on the processing

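None of the 8 genes, the 29 regulators or the 36 target genes was called under any of the 15 alternatives, in which between 0 and 1, 0 and 2 and 0 and 3 of them had an unadjusted p under 0.05. The number called among all genes, 2 in edgeR, was 9 with DESeq2, 17 with DESeq2 and no Cook's distance filter, 4 with limma voom, 5 without a filter, 0 when each sample had to reach 10 counts (479 with an unadjusted p under 0.05) and 1 at an FDR of 0.05. It ran from 0 to 6 when each sample was left out, with 0 without MUT replicate 2 (292 with an unadjusted p under 0.05), 1 without MUT replicate 1, 5 without WT replicate 3 and 6 without MUT replicate 3. The replicate block gave 13 in edgeR and 55 in DESeq2, and it changed no call among the genes described. The sign of differences near 0 turned for *Trp53inp1* with the replicate block in DESeq2 (0.0010). When each sample was left out, log2 fold changes ran from -0.070 to 0.059 for *Trp53inp1*, -0.035 to 0.12 for *Ccng1*, -0.014 to 0.092 for *Mdm4*, -0.71 to -0.15 for *Trp63* and -0.34 to 0.089 for *Trp73*, and the log2 ratio of *Ccng1* to *Trp53* differed by -0.12 to 0.058. Where results changed, the cause was not tested. The levels of the 8 genes moved by less than 1 SD under DESeq2 size factors and without factors. Depth limits *Trp63* and *Trp73*, at 10 to 34 counts per library. Leaving out a sample assumes a like spread in both groups.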
